A study of Homo sapiens with 18 samples.

Results

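The genes for the subunits of GABA-gated chloride channels and for glutamate receptors were examined as a group across 2 repressive histone marks. Members were all autosomal protein-coding genes whose symbols begin with GABR, GRIA, GRIK, GRID, GRIN or GRM and follow the receptor naming pattern, which gave 41 of 19126 autosomal protein-coding genes, and 4 genes with such names on the X chromosome were left out. The rule used names only and no measured value, but the set was chosen with earlier results of these data known. U937 is an established human acute myeloid leukaemia (AML) line. H3K9me3 and H3K27me3 were profiled by ChIP-seq, with Drosophila S2 chromatin added as a spike-in, in 3 derivatives of the line, each with 2 libraries per mark. Cells with a control guide are called sgControl, cells knocked out for SUV39H1 are called SKO, and cells knocked out for both SUV39H1 and SUV39H2 are called DKO. SETDB1 was profiled in 2 libraries of unmodified (WT) cells. No group had a drug treatment in the labels, and the labels do not say whether a knockout line was 1 clone or a pool.

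GABA-A and rho receptors are chloride channels that inhibit neurons, and AMPA, kainate and NMDA receptors are cation channels that carry excitatory transmission at glutamatergic synapses. The metabotropic receptors (GRM genes) act through G proteins. In blood cells most genes of neuronal identity are silent, and a pair of repressive systems is known for this: Polycomb complexes set H3K27me3, while SUV39H1, SUV39H2 and SETDB1 set H3K9me3, the mark of heterochromatin. Many genes of ion channel subunits are long and lie in paralogous clusters, among them the GABA-A subunit clusters on chromosomes 4, 5 and 15.

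The measurement was the percentage of a gene body, from the annotated start to the annotated end, that lay inside the broad domains deposited by the authors for each library. These domains show where a mark was called and not how much of it was present, because no spike-in factor was used here. On the autosomes H3K9me3 domains covered 1028 and 997.2 Mb in sgControl and 737.1 to 772.3 Mb in the knockouts. H3K27me3 domains covered 1022 and 1027 Mb in sgControl and 1124 to 1148 Mb in the knockouts. Reads inside domains numbered 16.2 to 23.3 M per H3K9me3 library and 45.5 to 67.6 M per H3K27me3 library. Of 14 myeloid genes listed for U937, 11 carried neither mark in any of the 12 libraries, among them SPI1, CEBPA and MPO. The other 3 (CD33, ITGAM and PTPRC) carried H3K9me3. PTPRC had 14.1% and 8.08% in sgControl, 54.3% and 50.5% in SKO, and 47.6% and 51.6% in DKO. CD33 had 0% in both sgControl libraries, 0% and 64.0% in SKO, and 58.0% and 69.2% in DKO. ITGAM had 41.8% to 67.0% in all libraries. Of 9 neuronal genes 1, TUBB3, was free of both marks. GAD1 had H3K9me3 in 1 sgControl library only (30.8%) and no H3K27me3. SLC17A7 had 46.2% and 39.6% H3K27me3 in sgControl and neither mark in the knockouts. The others carried H3K27me3 in every library of that mark. Whether the 2 libraries of a group came from separate cultures is not in the labels, and their spread may be technical only.

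Most of these receptor genes were Polycomb-marked in U937. In sgControl 24 of 41 members had at least 50% of the gene body inside H3K27me3 domains in both libraries (58.5%, against 14.4% of all genes). The count was 26 in SKO and 26 in DKO, beside 14.2% and 14.8% of all genes. H3K9me3 reached the same level in 9 members in sgControl (22.0%, against 14.2% of all genes), 8 in SKO and 12 in DKO, beside 12.7% of all genes in either knockout. Members were longer than other genes, with a median of 147 kb against 24.5 kb, and 23 of 41 spanned at least 100 kb. Among those 23, 17 had the H3K27me3 level above in sgControl (73.9%), against 25.9% of the 3210 autosomal genes of that length, and 8 had the H3K9me3 level (34.8%, against 25.6%).

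Summed over the members, 11.4 Mb of gene body was 71.7% and 71.1% inside H3K27me3 domains in the sgControl libraries, 78.2% in both SKO libraries, and 76.6% and 75.3% in DKO. For H3K9me3 the sum was 37.0% and 35.0% in sgControl, 22.9% and 25.1% in SKO, and 32.6% and 33.2% in DKO. SKO was therefore below both other genotypes in H3K9me3 with no overlap of libraries, and both knockouts were above sgControl in H3K27me3. Long genes dominate these sums. Over all autosomes H3K27me3 domains also covered more in both knockouts, at 1124 to 1148 Mb against 1022 and 1027 Mb in sgControl. H3K9me3 domains there also covered least in SKO, at 737.1 and 738.7 Mb. They covered 772.3 and 767 Mb in DKO, and 1028 and 997.2 Mb in sgControl. Whether the members changed by more than the autosomes in either mark was not tested.

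**Figure D1:**
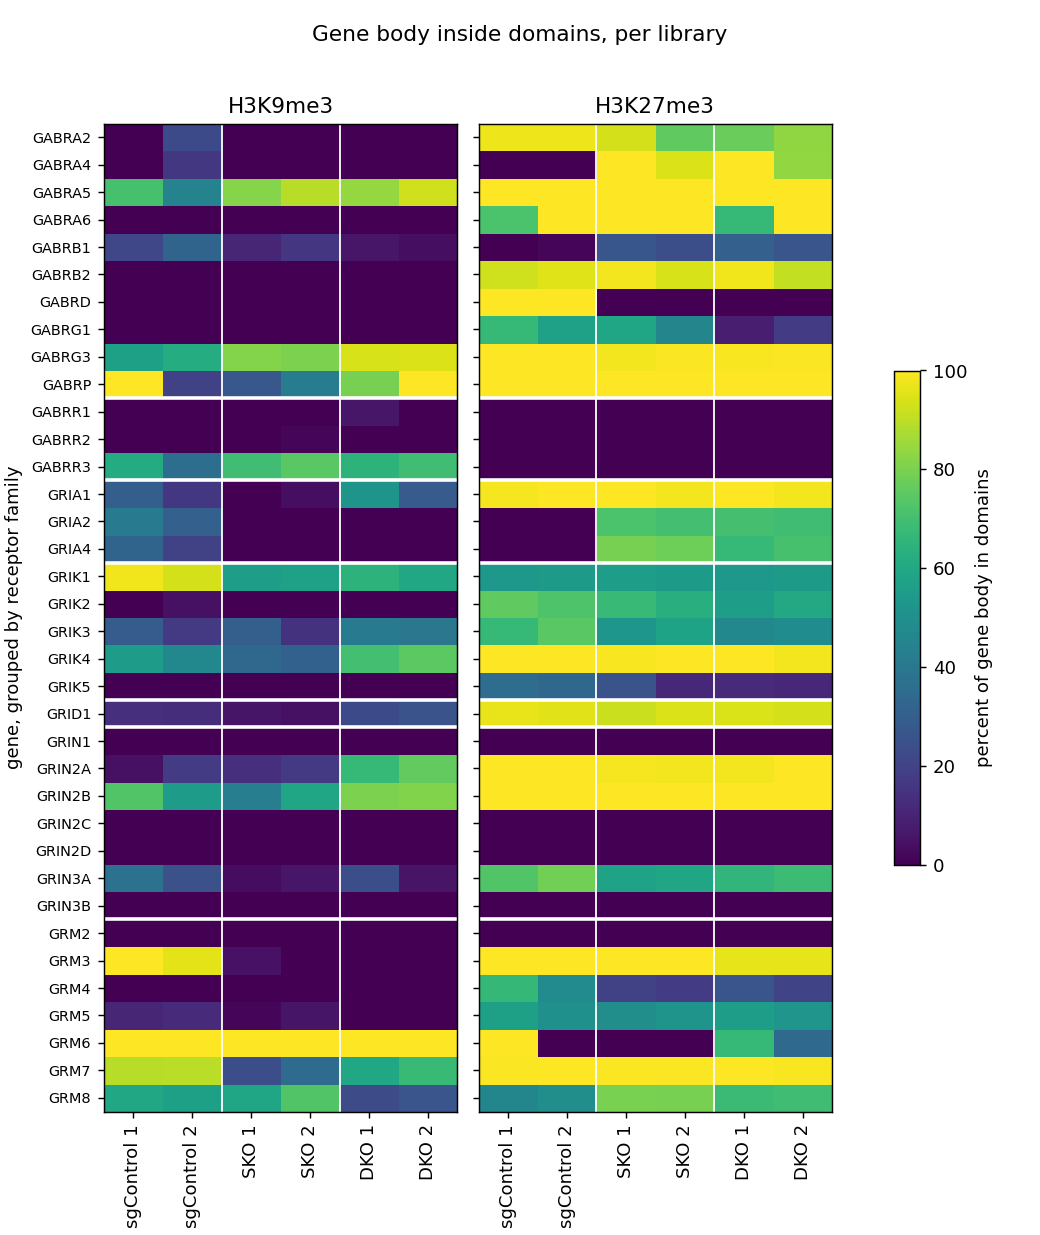
Percent of each gene body (colour, 0 to 100) inside H3K9me3 domains (left) and H3K27me3 domains (right) for 36 of the 41 receptor genes, with 1 column per library and white lines between genotypes and between receptor families. GABRD goes from 100% to 0% H3K27me3 in both knockouts, GRM3 loses H3K9me3 while its H3K27me3 stays above 96%, and GRIN2C, GRIN3B, GRIN2D, GRM2 and GRIN1 are at 0% throughout.

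A member was called lost or gained only if both libraries of one genotype lay on the same side of both libraries of the other, with 25 points or more between the closest values. With this rule 17 of 41 members were called in at least 1 of the 6 comparisons, 3 per mark, and 24 were never called. In SKO against sgControl, 4 members lost H3K9me3 (GRIK1, GRM7, GRIA2 and GRM3; 9.76%), where 4.57% of all genes did, and 0 gained it, where 4.09% of all genes did. For that count of 0, limma, a linear model fitted across all genes with the mark in any library, had 1 member higher in SKO at an adjusted p under 0.05 (GABRG3) and 1 at an unadjusted p under 0.05. In DKO against sgControl, 4 lost H3K9me3 (GRIK1, GRIA2, GRM3 and GRM8), beside 4.32% of all genes, and 2 gained it (GABRG3 and GRIN2A), beside 3.73%. In DKO against SKO, 1 lost it (GRM8), beside 1.38%, and 5 gained it (GRIK4, GRIN2A, GRM7, GRIA1 and GABRP; 12.2%), beside 1.43% of all genes. Leaving out a library can only add calls under this rule, in any gene. Without sgControl replicate 2 of H3K9me3, 8 members and 6.56% of all genes lost the mark in SKO. Without sgControl replicate 1, 2 members gained it in SKO, beside 5.2% of all genes, and 6 in DKO, beside 4.93%.

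Loss can be called only where a gene is marked in the reference. Of the 13 members with at least 25% H3K9me3 in both sgControl libraries, 4 lost it in SKO and 4 in DKO, beside 24.3% and 23% of all genes so marked. Among genes of at least 100 kb, 4 of 23 members (17.4%) and 11.7% of all such genes lost H3K9me3 in SKO. In DKO against SKO, 4 of those 23 gained H3K9me3, beside 2.37% of all such genes. The median difference was 0 over the members and 0 over all genes in each of the 6 comparisons.

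For H3K27me3, 5 members gained the mark in SKO (12.2%; among them GRIA4, GABRA4, GRIA2 and GRM8), where 3.06% of all genes did, and 2 lost it (GABRD and GRM4), where 3.23% did. In DKO 4 gained it (among them GRIA4, GABRA4 and GRIA2), beside 3.47% of all genes, and 2 lost it (GABRD and GABRG1), beside 3.1%. Between DKO and SKO, GABRG1 lost the mark, beside 0.382% of all genes, and GRM6 gained it, beside 0.716%. Among genes of at least 100 kb, 4 of 23 members and 7.10% of all genes gained H3K27me3 in SKO. Without sgControl replicate 2 or DKO replicate 1 of H3K27me3, 4 members lost the mark in DKO, beside 3.79% and 3.78% of all genes, and without DKO replicate 2, 2 lost it against SKO, beside 0.586%. The SKO and DKO comparisons share the sgControl libraries, so their calls are not independent of each other.

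Limma, at an adjusted p under 0.05, was the second way of counting. Of 29 members with H3K9me3 in any library, it had 9 lower and 1 higher in SKO, beside 11.7% and 17.1% of the 8204 genes tested. In DKO it had 9 lower and 4 higher, beside 11.6% and 14.2%, and between DKO and SKO 1 lower and 4 higher, beside 3.73% and 2.65%. Of 33 members with H3K27me3 in any library, 3 were lower and 6 higher in SKO, beside 18.2% and 14.8% of 4619 genes. In DKO 6 were lower and 6 higher, beside 18.6% and 16.2%, and between DKO and SKO 2 were lower and 1 higher, beside 2.04% and 3.49%. Members marked in no library could not enter these counts.

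GABA-A receptors are assembled from alpha, beta and gamma subunits, with delta or pi in place of gamma in some. H3K27me3 covered the 13 GABA-A genes to 80.0% ± 1.21 of the gene body in sgControl, 80.3% ± 1.61 in SKO and 74.7% ± 0.526 in DKO (mean over genes, SD over libraries, n = 2). H3K9me3 covered 22.4% ± 4.05, 22.1% ± 0.464 and 28.7% ± 1.50. Their values are given by chromosomal cluster.

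On chromosome 5, GABRB2 encodes a beta subunit and GABRA6 an alpha subunit best known from cerebellar granule cells. Neither had any H3K9me3 in any library. H3K27me3 covered 90.9% to 98.3% of GABRB2 and 66.8% to 100% of GABRA6 over the 6 libraries, and neither was called. GABRP, the pi subunit gene expressed in epithelia and lying on the same chromosome (chr5:170782720-170814047), had 100% H3K27me3 in all 6 libraries. H3K9me3 covered 100% and 19.3% of GABRP in the sgControl libraries, 27% and 42.3% in SKO, and 79.6% and 100% in DKO. Its sgControl libraries spanned the range of all others, the DKO libraries lay above the SKO libraries, and limma did not call that difference (55.2 points, SE 32.0, adjusted p = 0.540).

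On chromosome 15, the neighbours GABRA5 and GABRG3 carried both marks. Both had 98.3% to 100% H3K27me3 in every library. GABRG3 (chr15:26971181-27541984) had 56.7% and 61.9% H3K9me3 in sgControl, 81.4% and 80.5% in SKO, and 93.8% and 94.8% in DKO. The 3 genotypes did not overlap, and DKO was the highest. The rise against sgControl was 35.0 points in DKO (SE 2.09, limma adjusted p = 0.00285) and 21.6 points in SKO (adjusted p = 0.00800), the latter under the 25-point rule by its nearest libraries. The H3K9me3 shared by both libraries of a genotype lengthened from 244.8 kb to 401.6 kb and 516 kb of the GABRG3 body. All of it lay inside shared H3K27me3, as nearly all of the gene did in each genotype. GABRA5, an alpha subunit gene, had 70.8% and 44.6% H3K9me3 in sgControl, 82.0% and 89.3% in SKO, and 84.0% and 92.6% in DKO. It was not called in any comparison.

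The sequence before the GABRG3 start is shown for its H3K9me3, which covered the window in 1 of 2 sgControl libraries and in all 4 knockout libraries. That sgControl library equalled the knockouts, so the genotypes overlapped in this window. H3K27me3 covered it in all 6 libraries. Capitals mark the dinucleotide CG, the site of DNA methylation, in the 250 bases before the RefSeq start (GRCh38.p14, chr15:26970931-26971180, plus strand), which holds 20 of them.
GABRG3: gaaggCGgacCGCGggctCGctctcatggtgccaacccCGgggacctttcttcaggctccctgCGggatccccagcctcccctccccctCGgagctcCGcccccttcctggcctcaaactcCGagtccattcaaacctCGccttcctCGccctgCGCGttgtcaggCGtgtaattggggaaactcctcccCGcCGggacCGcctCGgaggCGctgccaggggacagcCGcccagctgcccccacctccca
Over 15101 RefSeq promoters of that length the median was 17 CG, 96.9% held at least 1, 69.0% held at least 10 and 43.9% at least 20. The CG motif reads the same on both strands and overlaps no other motif searched.

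On chromosome 4, GABRG1, GABRA2, GABRA4 and GABRB1 follow each other, and H3K27me3 differed between genotypes at both ends of this cluster. GABRA4 (chr4:46918900-46993581), the alpha 4 subunit gene, had 0% H3K27me3 in both sgControl libraries, 100% and 94.6% in SKO, and 100% and 83.9% in DKO. The rise was 97.3 points in SKO (SE 6.57, limma adjusted p = 0.00218) and 92.0 points in DKO (adjusted p = 0.00245). The sgControl values sit at the lower limit of the scale with no spread, so these p-values may be too small. GABRB1, the beta 1 gene next to it, rose from 0% and 1.48% to 26.6% and 24.0% in SKO and 30.5% and 26.2% in DKO (limma adjusted p = 0.00375 and 0.00260), which is under the 25-point rule. GABRG1 (chr4:46035769-46124054), the gamma 1 gene at the other end, had 67.1% and 57.4% in sgControl, 59.0% and 45.6% in SKO, and 8.48% and 17.3% in DKO. It fell by 49.4 points in DKO against sgControl (SE 7.25, limma adjusted p = 0.0166) and by 39.4 points against SKO (adjusted p = 0.116). GABRA2 between them kept 75.8% to 97.3% in every library and was not called. For GABRG1 the call in both comparisons was absent when only the upper 50% of domains by score were used, with a difference of -22.3 points against sgControl. The loss did not reach the GABRG1 start. H3K27me3 covered 100% of the 2 kb window there in the sgControl and SKO libraries, and 100% and 92.65% in DKO.

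**Figure D2:**
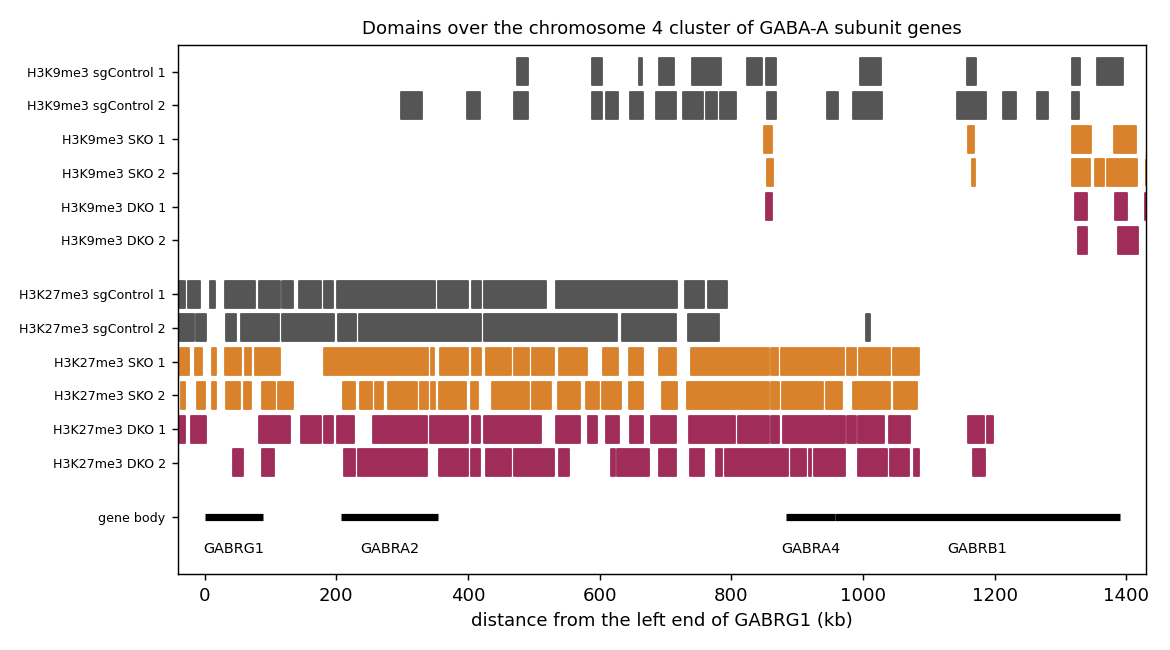
Domains in each library (coloured boxes) over the GABA-A subunit cluster of chromosome 4, plotted by distance in kb from the left end of GABRG1, with gene bodies in black. H3K27me3 boxes over GABRA4 are present in all 4 knockout libraries and in neither sgControl library, and over GABRG1 few are left in DKO.

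GABRA4 and GABRB1 are transcribed away from each other, with 65 bases between their annotated ends. This stretch lay wholly inside H3K27me3 domains in all 4 knockout libraries and in no sgControl library, and it is shown because the H3K27me3 gain of both genes spans it. It is given on the minus strand, in the direction of GABRA4 (GRCh38.p14, chr4:46993582-46993646), and holds 5 CG in capitals.
GABRA4: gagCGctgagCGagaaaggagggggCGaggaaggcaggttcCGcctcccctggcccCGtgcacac
H3K9me3 covered it in 1 sgControl library and in no other.

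GABRD (chr1:2019345-2030758), which encodes the delta subunit of extrasynaptic receptors, showed the largest H3K27me3 loss among the members in percent of the gene body. It had 100% and 100% in sgControl and 0% in all 4 knockout libraries. A single domain of 36.8 kb reached over the gene in each sgControl library. The values sit at the limits of the scale with no spread, so no p is given. The domain was not among the upper 50% by score, and with those alone the gene was at 0% in all libraries. No H3K9me3 was called over GABRD in any library, and RefSeq promoter sequence for it was not used here.

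The rho subunits form GABA channels best known from the retina. GABRR1, GABRR2 and GABRR3 had 0% H3K27me3 in all 6 libraries. GABRR3 had 61.5% and 36.0% H3K9me3 in sgControl, 69.5% and 74.3% in SKO, and 64.7% and 69.5% in DKO, and was not called, while GABRR1 and GABRR2 had at most 5.95%.

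AMPA receptor subunits mediate fast excitatory transmission. The mean H3K27me3 of the 3 autosomal AMPA genes was 33.1% ± 0.349 in sgControl, 82.9% ± 1.25 in SKO and 79.4% ± 0.163 in DKO (SD over libraries, n = 2), and 2 of the 3 were called. GRIA2 (chr4:157220120-157366075), whose subunit limits calcium entry, had 0% H3K27me3 in both sgControl libraries, 71.8% and 69.9% in SKO, and 70.6% and 69.4% in DKO. GRIA4 (chr11:105609994-105982090) had 0% in both sgControl libraries, 79.6% and 77.9% in SKO, and 67.1% and 70.8% in DKO. Every knockout library was above both sgControl libraries for either gene. For GRIA2 the rise was 70.9 points in SKO (SE 0.869, limma adjusted p = 1.57e-05) and 70.0 points in DKO (adjusted p = 1.61e-05), and for GRIA4 it was 78.7 points (SE 1.57, adjusted p = 6.78e-05) and 68.9 points (adjusted p = 9.80e-05). The sgControl values of both genes sit at the lower limit of the scale with no spread, so these SEs and p-values may be too small.

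Both genes moved the opposite way in H3K9me3. GRIA2 had 41.7% and 30.7% in sgControl and 0% in all 4 knockout libraries, a loss of 36.2 points (SE 4.16, limma adjusted p = 0.0117 in SKO and 0.0125 in DKO). GRIA4 had 32.4% and 19.3% in sgControl and 0% in all 4 knockout libraries (limma adjusted p = 0.0365 and 0.0395), and its lower sgControl library kept it out of the calls. Here the knockout values of both genes sit at the lower limit, so these p-values may be too small as well. GRIA2 carried H3K9me3 as 2 domains per sgControl library, the widest 35.2 kb, with a read density of 0.721 and 0.735 times the mean of all domains of the library. With the upper 50% of domains by score, or with domains trimmed to an equal covered length, GRIA2 was at 0% H3K9me3 in all libraries and the call was lost. Under the same settings its H3K27me3 was 0% in sgControl and DKO alike, so the DKO call was lost too. GRIA1, an AMPA gene with 98.3% to 100% H3K27me3 in all libraries, had 30.4% and 16.1% H3K9me3 in sgControl, 0% and 3.54% in SKO, and 51.9% and 28.6% in DKO. The DKO libraries lay above the SKO libraries, and limma did not call the difference of 38.5 points (SE 10.4, adjusted p = 0.173). The nearest libraries differed by 25.1 points, and the call was absent with the upper 50% of domains by score, with equal covered length and with 2 kb added to the body.

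The 250 bases before the GRIA2 start (chr4:157219870-157220119, plus strand, 6 CG in capitals) are shown because the H3K27me3 gain of the gene body stopped short of them. In SKO the longest gained stretch began 4.68 kb inside the gene and no library of SKO or sgControl had a domain over this window, and 1 of 2 DKO libraries covered 47.6% of it.
GRIA2: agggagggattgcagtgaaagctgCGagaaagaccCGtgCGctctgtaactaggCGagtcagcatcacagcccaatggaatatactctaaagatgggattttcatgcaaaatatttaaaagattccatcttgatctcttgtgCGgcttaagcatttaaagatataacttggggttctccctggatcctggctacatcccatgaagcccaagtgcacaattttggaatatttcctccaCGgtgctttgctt

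**Figure D3:**
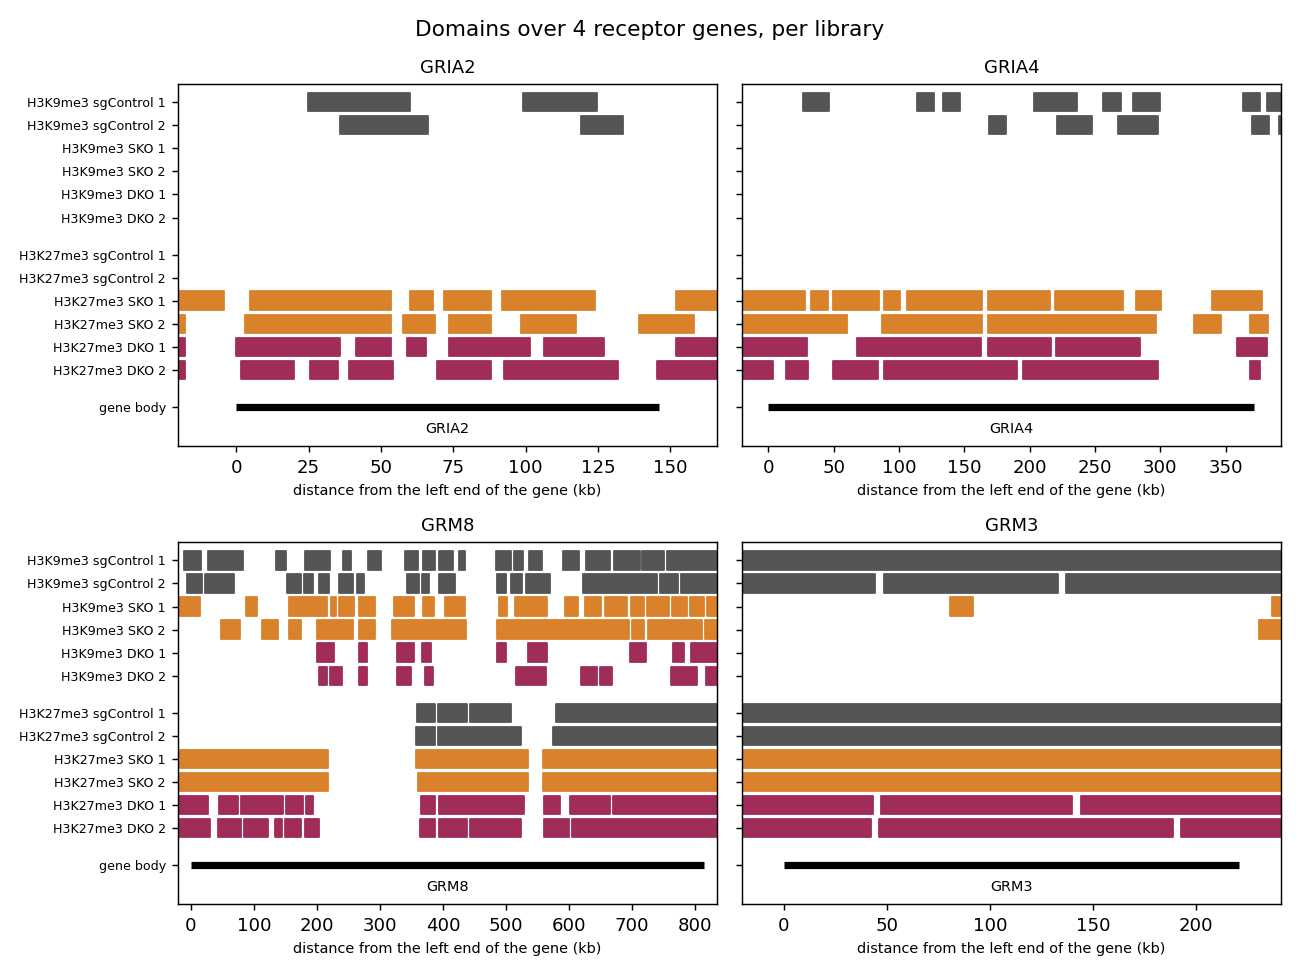
Domains in each library over GRIA2, GRIA4, GRM8 and GRM3, plotted by distance in kb from the left end of each gene, with grey boxes for sgControl, orange for SKO and crimson for DKO. Over GRIA2 and GRIA4 the knockouts have H3K27me3 boxes along most of the body. There sgControl has no H3K27me3 box and only scattered H3K9me3 boxes. Over GRM8 H3K27me3 is wider in the knockouts and H3K9me3 is thinned in DKO. Over GRM3 H3K9me3 is all but absent in the knockouts while H3K27me3 is kept.

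Kainate receptors adjust transmitter release and excitability. GRIK1 (chr21:29536933-29939996) had 98.0% and 93.6% H3K9me3 in sgControl, 55.7% and 57.3% in SKO, and 64.7% and 59.7% in DKO. It fell by 39.3 points in SKO (SE 2.60, limma adjusted p = 0.00348) and by 33.6 points in DKO (adjusted p = 0.00509). Its H3K27me3 stayed at 53.2% to 56.2% in all 6 libraries. The longest lost stretch, 72.8 kb in SKO and 76.8 kb in DKO, lay at the left end of the gene (from position 29546401 in SKO and 29541601 in DKO).

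GRIK4 (chr11:120511748-120988906) went down in 1 knockout and up in the other. H3K9me3 covered 55.3% and 46.6% in sgControl, 33.7% and 31.0% in SKO, and 70.1% and 75.0% in DKO, with no overlap between any 2 genotypes. The change was -18.6 points in SKO (SE 3.92, limma adjusted p = 0.0450) and 21.6 points in DKO (adjusted p = 0.0351), both under the 25-point rule by the nearest libraries, and 40.2 points between DKO and SKO (adjusted p = 0.0251). H3K27me3 over GRIK4 was 98.3% to 100% in all libraries. GRIK2, GRIK3 and GRIK5 were not called in any comparison. For GRIK3, H3K27me3 was 67.0% and 74.4% in sgControl and 46.6% and 48.6% in DKO (limma adjusted p = 0.0195), and for GRIK2 it was 75.8% and 72.6% against 55.8% and 60.3% (adjusted p = 0.0244). GRIK5 had 11.2% to 35.7% H3K27me3 and no H3K9me3.

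GRID1 encodes a delta receptor, a synapse organiser. H3K27me3 covered 96.7% and 95.5% of it in sgControl, 91.8% and 94.6% in SKO, and 94.2% and 93.5% in DKO, and it was not called for either mark. GRID1 had 13.3% and 13.1% H3K9me3 in sgControl, 5.73% and 4.59% in SKO, and 22.6% and 25.5% in DKO, the same order of genotypes as GRIK4 at a lower level.

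NMDA receptors need GRIN1 together with GRIN2 or GRIN3 subunits. The 7 NMDA genes split into 3 with near-complete or partial Polycomb cover (GRIN2A, GRIN2B and GRIN3A) and 4 with no domain of either mark in any of the 12 libraries (GRIN1, GRIN2C, GRIN2D and GRIN3B). With GRM2, the latter make up all 5 members free of both marks (12.2% of members, against 52.9% of all genes). These 5 span 9.31 to 51.3 kb. GRIN2A (chr16:9753404-10182908), which encodes a subunit more prominent in the mature brain, had 4.66% and 17.7% H3K9me3 in sgControl, 13.8% and 16.9% in SKO, and 67.1% and 76.0% in DKO. The SKO libraries lay within the sgControl range, and both DKO libraries were far above it. The rise was 60.4 points against sgControl (SE 6.11, limma adjusted p = 0.00941) and 56.2 points against SKO (adjusted p = 0.0306). H3K27me3 covered 98.2% to 100% of GRIN2A throughout. The 231.2 kb of H3K9me3 shared by both DKO libraries lay wholly inside it, as nearly all of the gene did.

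GRIN2B had 72.8% and 55.5% H3K9me3 in sgControl, 42.6% and 59.4% in SKO, and 80.3% and 81.2% in DKO with 100% H3K27me3 throughout, and was not called. GRIN3A had 37.5% and 24.7% H3K9me3 in sgControl, 3.31% and 6.14% in SKO, and 24.1% and 5.34% in DKO. Its H3K27me3 was 72.9% and 78.6% in sgControl and 57.8% and 59.2% in SKO (limma adjusted p = 0.0173), under the 25-point rule.

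**Figure D4:**
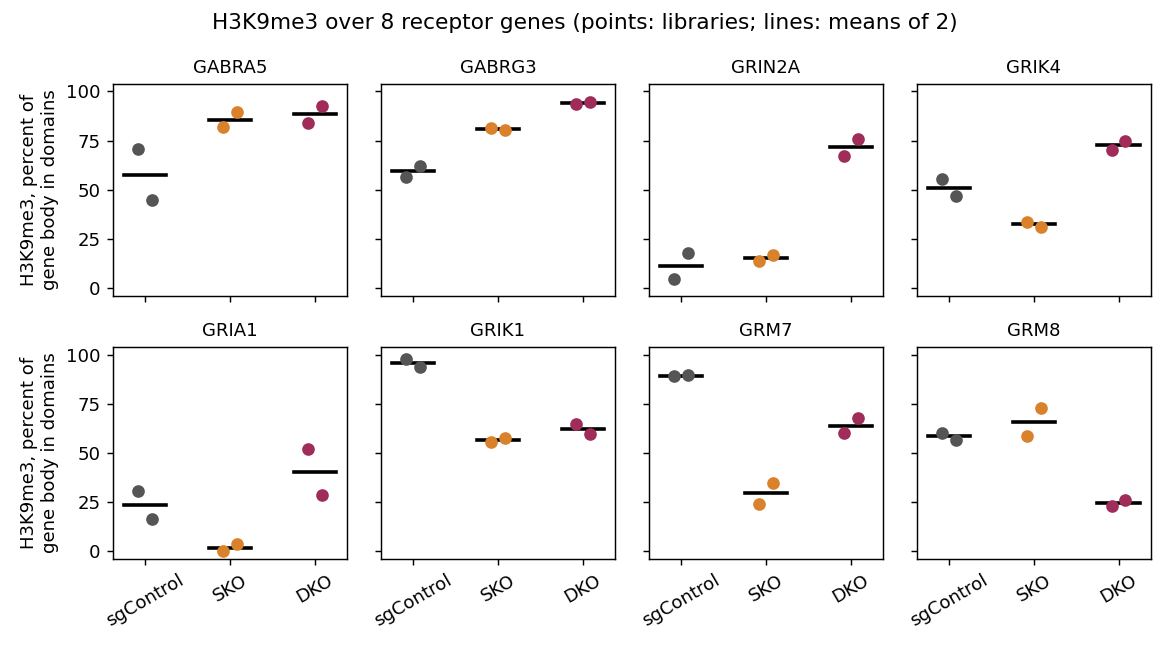
Percent of the gene body inside H3K9me3 domains for 8 receptor genes, with 1 point per library and a line at the mean of the 2 libraries of a genotype. GABRA5, GABRG3, GRIN2A, GRIK4 and GRIA1 have their highest mean in DKO, GRIK1 is highest in sgControl, GRM7 is lowest in SKO, and GRM8 is lowest in DKO.

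Metabotropic glutamate receptors fall into groups I, II and III, which GRM5, GRM3 and GRM7 exemplify. The 8 genes had the highest H3K9me3 of the families in sgControl, at 57.1% ± 0.381, and 34.7% ± 1.91 in SKO and 34.5% ± 1.21 in DKO (mean over genes, SD over libraries, n = 2). GRM3 (chr7:86643909-86864879) had 100% and 96.0% H3K9me3 in sgControl, 5.07% and 0% in SKO, and 0% in both DKO libraries. It fell by 95.5 points in SKO (SE 2.46, limma adjusted p = 0.000314) and by 98.0 points in DKO (adjusted p = 0.000307). This was the largest H3K9me3 loss among the members in percent of the gene body. The GRM3 values sit at or near the limits of the scale, so these p-values may be too small. H3K27me3 over GRM3 was 100% in sgControl and SKO and 96.4% in both DKO libraries. Both sgControl libraries shared 213.6 kb of H3K9me3 over GRM3. With H3K27me3 over the whole gene, it could only lie inside those domains.

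GRM7 (chr3:6861115-7741533) had 89.1% and 89.5% H3K9me3 in sgControl, 24.2% and 34.8% in SKO, and 59.9% and 67.8% in DKO, again on 99.1% to 100% H3K27me3 in all libraries. The genotypes did not overlap, with SKO the lowest and DKO between the others. It fell by 59.8 points in SKO (SE 5.02, limma adjusted p = 0.00586) and by 25.5 points in DKO (adjusted p = 0.0418), and DKO stood 34.3 points above SKO (adjusted p = 0.0559). The nearest DKO and SKO libraries differed by 25.1 points, at the edge of the rule, and with 2 kb added on either side of the body GRM7 was no longer called there. Of the GRM7 body, 708.8 kb carried H3K9me3 in both sgControl libraries, 131.2 kb did so in SKO, and DKO had 416 kb.

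The 250 bases before the starts of GRM3 (chr7:86643659-86643908, plus strand, 5 CG) and GRM7 (chr3:6860865-6861114, plus strand, 11 CG) are shown because H3K9me3 covered both windows in both sgControl libraries and in none of the knockout libraries, with H3K27me3 over both in all 6 libraries. Capitals mark CG.
GRM3: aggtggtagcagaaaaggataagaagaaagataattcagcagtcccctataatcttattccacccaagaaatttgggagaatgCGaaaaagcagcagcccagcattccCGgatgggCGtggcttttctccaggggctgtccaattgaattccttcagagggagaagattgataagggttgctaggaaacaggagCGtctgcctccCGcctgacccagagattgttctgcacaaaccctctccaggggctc
GRM7: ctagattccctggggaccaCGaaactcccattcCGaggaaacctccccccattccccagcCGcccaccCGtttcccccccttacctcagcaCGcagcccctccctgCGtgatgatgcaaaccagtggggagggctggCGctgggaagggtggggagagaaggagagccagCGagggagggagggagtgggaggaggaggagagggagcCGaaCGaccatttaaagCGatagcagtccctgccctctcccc
Neither DKO library had H3K9me3 at the GRM7 start, although both were above SKO over the body.

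GRM8 (chr7:126438598-127252941), on the same chromosome as GRM3, had 60.0% and 56.7% H3K9me3 in sgControl, 58.8% and 72.7% in SKO, and 23.1% and 26.2% in DKO. It fell by 33.7 points in DKO against sgControl (SE 5.53, limma adjusted p = 0.0281), and against SKO it fell by 41.1 points (adjusted p = 0.0472). H3K27me3 covered 46.1% and 49.4% in sgControl, 80.0% and 79.6% in SKO, and 68.2% and 69.2% in DKO, a rise of 32.0 points in SKO (SE 1.36, limma adjusted p = 0.000604) and of 20.9 points in DKO (adjusted p = 0.00189, under the 25-point rule). The gain in SKO was 1 stretch of 217.6 kb at the end of the gene far from its start, within 248 kb in all. H3K9me3 domains over the whole of chromosome 7 summed to 76.6 and 74.3 Mb for the sgControl libraries, 58.4 and 58.1 Mb for SKO, and 25.3 and 25.1 Mb for DKO. Of its 938 genes, 159 lost the mark in DKO (17.0%) and 74 in SKO (7.89%). The part of this chromosome-wide difference in the GRM3 and GRM8 results was not tested. The GRM8 loss against sgControl was -21.5 points when domains were limited to the upper 50% by score and -9.64 points with domains trimmed to equal covered length, and was called under neither.

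GRM4 (chr6:34018643-34155622) had 66.6% and 48.2% H3K27me3 in sgControl, 19.3% and 17.5% in SKO, and 26.3% and 20.4% in DKO, and almost no H3K9me3. It fell by 39.0 points in SKO (SE 7.51, limma adjusted p = 0.0349) and by 34.0 points in DKO (adjusted p = 0.0470), the latter under the 25-point rule by the nearest libraries. GRM6 (chr5:178978327-178995320), the receptor of retinal ON bipolar cells, had 100% H3K9me3 in all 6 libraries. Its H3K27me3 was 100% and 0% in the sgControl libraries, 0% in both SKO libraries, and 67.0% and 34.1% in DKO, and limma gave an adjusted p of 0.882 for DKO against SKO. The 2 sgControl libraries were at opposite limits over this 17.0 kb gene, and the call was absent with the upper 50% of domains by score. GRM5 was at 49.5% to 56.9% H3K27me3 in all libraries. Its H3K9me3 was 10.8% and 12.1% in sgControl, 1.71% and 5.70% in SKO (limma adjusted p = 0.0443) and 0% in both DKO libraries (adjusted p = 0.0202), too low for the 25-point rule.

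Near the start the picture differed from that of whole bodies in several genes. A window of 2 kb centred on the first start listed by RefSeq could be placed for 30 members, of which 22 have that start at the end of the annotated gene and 8 have it inside the body (GRIA4, GRIN2A, GABRB1, GRIA1, GABRB2, GABRP, GRM4 and GABRR1). In SKO 5 windows lost H3K9me3 (GRM7, GABRB1, GRM3, GRM8 and GRIN3A) beside 3.15% of 15101 gene windows, and 1 gained it (GABRG3) beside 3.03%. In DKO 3 lost it (GRM7, GABRB1 and GRM3) beside 2.86%, and GABRG3 gained it beside 3.09%. For H3K27me3 the windows of GRIA4, GABRA4 and GABRB1 went from 0% in both sgControl libraries to 100% in all 4 knockout libraries, beside 2.01% of windows gained in SKO and 2.46% in DKO. The GRM4 window went the other way, from 100% in both sgControl libraries to 0% in all 4 knockout libraries. GRIK3, GABRA2 and GABRB2 also lost H3K27me3 at the window in SKO, 4 in all with GRM4 beside 2.46%, and in DKO GRM4 alone did, beside 2.24%. The GRM8 window was covered by H3K9me3 in both sgControl libraries, 43% and 0% in SKO, and 100% and 0% in DKO, so the window did not repeat the loss seen over the body in DKO.

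Much of the H3K9me3 lost from members came from GRM7 and GRM3, and lay on H3K27me3 present in both genotypes. Counting sequence marked in both libraries of one genotype and neither of the other, members lost 1.03 Mb of H3K9me3 in SKO. Of this length 73.9% was inside H3K27me3 domains of both genotypes and 13.0% gained H3K27me3, where the shares over all gene bodies were 59.5% and 9.32%. In DKO members lost 0.799 Mb, of which 56.3% lay on kept H3K27me3, against 40.4% over all gene bodies. GRM7 and GRM3 held 0.585 Mb of the length lost in SKO and 0.312 Mb of that lost in DKO. Without these 2 genes, left out after the values were seen, the shares on kept H3K27me3 were 39.9% in SKO and 30.2% in DKO, below those over all gene bodies. SKO gained 0.215 Mb of H3K9me3, of which 73.6% lay on kept H3K27me3, against 6.87% over all gene bodies. DKO gained 0.501 Mb, of which 92.8% did, against 18.3% over all gene bodies. Without the 2 members with the most gained length, these shares were 79.8% in SKO (GABRG3 and GRM8 left out) and 84.8% in DKO (GRIN2A and GABRG3 left out). H3K27me3 gained 1.11 Mb of member sequence in SKO and 1.02 Mb in DKO. Of this gained length 12.1% in SKO and 13.7% in DKO lay on lost H3K9me3, against 14.9% and 12.3% over all gene bodies. Members with at least 25% of both marks in all 4 libraries of a genotype numbered 9 in sgControl, 9 in SKO and 13 in DKO, beside 9.38%, 7.42% and 9.19% of all genes. Members carried more H3K27me3 than most genes in sgControl, and these shares are given as a description only. Of the summed member length, H3K27me3 domains held 71.7% and 71.1% in sgControl, 78.2% in both SKO libraries, and 76.6% and 75.3% in DKO. The shares on kept H3K27me3 are to be read beside this cover, and a preference beyond it was not tested.

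SETDB1, mapped in WT cells only, had a peak in both libraries within 2 kb of the body of 7 members (among them GRIK1, GRM2, GABRB1, GRM4, GRM8 and GRIN1), where 21% of all genes had one. The libraries held 22879 and 23773 autosomal peaks. GABRB1 had 5 and 3 peaks, with a best −log10 p of 14.3 and 13.2 as deposited by the authors. GRIK1 had 5 and 4 peaks, with a best −log10 p of 6.27 and 6.10. Of the members called as losing H3K9me3, GRM3 and GRIA2, lost in both knockouts, had no peak in either library. GRIK1, with the peaks above, was also lost in both knockouts. GRM8, lost in DKO, had 4 and 3 peaks, and GRM7, lost in SKO, had 1 and 0. H3K9me3 over GABRB1 was 21.5% and 32.3% in sgControl, 10.9% and 15.7% in SKO, and 5.93% and 3.71% in DKO, without a call. A relation between peaks and losses was not tested. With a −log10 p of at least 10 required, 2 members and 8.73% of all genes had a peak in both libraries.

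Other genes of GABA and glutamate signalling were read from a list of 66 (synthesis, transport, auxiliary subunits and scaffolds), of which 16 were free of both marks. In SKO 4 lost H3K9me3 (NETO1, CBLN2, LHFPL4 and GAD2) and 2 gained it (SLC1A6 and SLC1A3), beside 4.57% and 4.09% of all genes. In DKO 2 lost it (CBLN2 and NETO1) and 6 gained it (among them SLC1A6, SHISA9, SLC32A1, SHISA6 and SLC1A1), beside 4.32% and 3.73%. NETO1, an auxiliary subunit of kainate receptors, fell by 92.7 points in SKO (limma adjusted p = 0.0105) and by 52.6 points in DKO (adjusted p = 0.0395). For H3K27me3, 7 of the 66 lost the mark in SKO and 5 in DKO, beside 3.23% and 3.1% of all genes, and in either knockout 2 gained it (GRIP1 and SLC1A1), beside 3.06% and 3.47%. CACNG8, an auxiliary subunit of AMPA receptors, fell by 76.4 points in SKO (limma adjusted p = 0.0140) and by 67.1 points in DKO (adjusted p = 0.0185). GRIP1, a scaffold that binds AMPA receptor subunits, rose by 50.3 points in SKO (limma adjusted p = 3.94e-05) and by 51.7 points in DKO. Its sgControl libraries were both at 0%, so this p-value may be too small.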

How the data were processed

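ChIP-seq of H3K9me3 and H3K27me3 in U937 cells (sgControl, SKO and DKO, 2 libraries each) and of SETDB1 in WT cells (2 libraries) gave 14 lists out of 18 samples. Group and replicate of each library were read from its title, and the 4 inputs were not analysed here. Per the labels' protocols, chromatin was fixed with formaldehyde, S2 chromatin was spiked in and Nextera XT adapters were used. The submitters' processing notes list the genome builds dm6 and hg38 beside deepTools 3.5.6, Trim Galore 0.6.10, SICER and FastQC 0.12.1. No source used here names the aligner. The authors deposited 1 domain list per library, named for the caller epic2, with a read count (count of reads per domain, not normalised) and a score per domain in the file headers. The deposited SETDB1 lists give a score and a −log10 p per peak. Domains started on an 800 bp grid and lay at least 4000 bp apart.

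Gene bodies came from RefSeq (GRCh38.p14, the assembly of hg38). The percent of each body inside domains was computed for all 19126 autosomal protein-coding genes with Python 3.11.15, numpy 2.4.6 and pandas 2.3.3, and figures were drawn with matplotlib 3.10.9. The call rule needs no overlap of libraries and 25 points between the nearest. An exact permutation test of 2 against 2 libraries cannot reach a p of 0.05, so p-values are from limma 3.58.1 (R 4.3.3), fitted on the 6 libraries of a mark over genes with any cover (8204 for H3K9me3 and 4619 for H3K27me3) and adjusted by the Benjamini-Hochberg method over all of them. Percentages stop at 0 and 100, so limma's p-values for genes at those limits may be too small. The scripts were tested on simulated data.

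Shared bases of both libraries were counted on the 800 bp grid. Domain scores were used only to rank domains within a list, and read counts only for read density. The members, the list of 66 signalling genes and the markers were chosen with earlier results of these data known. The text gives library values for called members, others by range or where limma called them. Some members and listed genes count in the totals but are not reported here by name. Promoter sequences were to be those of the members with the largest loss and gain of each mark, in points. GABRD is not in the promoter set used, and the GRIN2A start lies inside the annotated gene and was not printed. GABRA4 was cut to the bases before GABRB1. GABRG3, GRIA2 and GRM7 were added after their values were seen. RefSeq promoters were matched for 30 of 41 members, and the first start listed was used.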

Additional observations from a re-analysis of the deposited data

Results flagged for a closer look

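H3K9me3 over 2 receptor genes moved in opposite directions in the 2 knockouts, with both SKO libraries below both sgControl libraries and both DKO libraries above them. GRIK4, a kainate receptor gene, was -18.6 points against sgControl in SKO and 21.6 points in DKO, and the difference between DKO and SKO was 40.2 points (SE 3.92, limma adjusted p = 0.0251). GRID1, a delta receptor gene, was -8.08 points in SKO and 10.8 points in DKO, a difference of 18.9 points (SE 1.26, limma adjusted p = 0.0111). Against sgControl the call rule held for neither gene in either knockout. Between DKO and SKO it held for GRIK4 and not for GRID1.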

How the results depend on the processing

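Of 31 differences behind a call, 24 kept their call with domains trimmed to equal covered length, 21 among the upper 50% of domains by score, 14 at a minimum of 50 points and 29 with 2 kb added on either side of the body, and none changed direction there. In the 2 kb window at the start 11 of 25 kept their call. For 1, GRM8 H3K9me3 in DKO against SKO, the difference of the means changed sign, at 28.5 points. The libraries overlapped there, with 43% and 0% in SKO and 100% and 0% in DKO. No opposite call was therefore made, and the cause was not tested. Leaving out a library can only keep or add calls under the call rule, in members and in all genes. After each count of members stands, in parentheses, the share of all genes tested that were called under the same setting. For H3K9me3 lost in SKO, 4 (4.57%), a minimum of 10 points gave 9 (7.1%), 50 points 2 (2.33%) and limma 9 (11.7%), and leaving out libraries gave 4 to 8 (5.56 to 6.56%). For H3K9me3 gained in SKO, 0 (4.09%), 10 points gave 2 (8.56%), the upper 50% 1 (4.16%), equal length 3 (6.71%), the start window 1 (3.03%), limma 1 (17.1%) and limma with the replicate block 1 (11.5%), with 0 to 2 (4.86 to 5.6%) without a library. For H3K9me3 lost in DKO, 4 (4.32%), 10 points gave 9 (7.15%), 50 points 1 (2.12%), equal length 2 (2.59%), leaving out chromosome 7 2 (3.67%) and limma 9 (11.6%). For H3K9me3 gained in DKO, 2 (3.73%), 10 points gave 6 (7.44%), 50 points 0 (1.43%), the upper 50% 4 (3.72%), equal length 6 (5.78%), the start window 1 (3.09%) and limma 4 (14.2%), with 2 to 6 (4.44 to 5.55%) without a library. Between DKO and SKO, H3K9me3 was lost in 1 (1.38%), and in 0 (0.376%) at 50 points, 0 (0.726%) without chromosome 7 and 0 (1.43%) by limma with the replicate block. It was gained in 5 (1.43%), and in 9 (3.13%) at 10 points, 1 (0.507%) at 50 points, 3 (1.43%) with 2 kb added, 1 (1.36%) in the start window and 1 (1.1%) by limma with the replicate block. For H3K27me3 lost in SKO, 2 (3.23%), 50 points gave 1 (1.78%), the upper 50% 1 (2.69%), equal length 6 (4.52%), the start window 4 (2.46%) and limma with the replicate block 4 (14.7%). Gained in SKO, 5 (3.06%), it was 3 (2.01%) in the start window. For H3K27me3 lost in DKO, 2 (3.1%), 10 points gave 7 (4.71%), 50 points 1 (1.69%), the upper 50% 1 (2.67%), equal length 8 (4.42%), the start window 1 (2.24%) and limma 6 (18.6%), with 2 to 4 (3.47 to 3.79%) without a library. Between DKO and SKO it was lost in 1 (0.382%), and in 2 (0.863%) at 10 points, 0 (0.152%) at 50 points and 2 (2.04%) by limma, with 1 to 2 (0.586 to 0.711%) without a library, and gained in 1 (0.716%), with 0 (0.371%) at 50 points, 0 (0.695%) with the upper 50%, 0 (0.706%) with equal length and 2 (0.775%) in the start window. In at least 1 comparison limma called 13 (34.2%) members for H3K9me3 and 13 (38.5%) for H3K27me3, and 8 (9.02%) and 8 (7.01%) without the filter on covered genes, a setting chosen after the data were seen. Leaving out 1 library gave 8 to 14 (27.7 to 32.1%) for H3K9me3, the lowest without DKO replicate 1, and 9 to 11 (35.5 to 37.1%) for H3K27me3. Members with a SETDB1 peak in both libraries, 7 (21%), numbered 2 (8.73%) at a −log10 p of at least 10, and with 1 library alone read 10 (27.2%) without replicate 2 and 13 (27.2%) without replicate 1. Replicate numbers did not pair the libraries: deviations of same-numbered libraries had correlations of -0.0140 to 0.0581. With the replicate block the differences between DKO and SKO at GRID1 and GRIK4 had limma adjusted p-values of 0.0648 and 0.0991. Domains called per library from unequal read numbers limit what can be seen: a gene at 0% has no called domain, which does not show that the mark is absent.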
